A study of Mus musculus with 109 samples.

Results

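B41 is a bait of chromosome 16 that lies in a gene-poor stretch on the centromere side of Lsamp, a large gene that encodes a cell adhesion protein of the IgLON family known from limbic neurons. Its contacts were read by 4C-seq, a chromosome conformation method that starts from 1 chosen site, the bait. Crosslinked chromatin was cut with HindIII and ligated, and the HindIII sites joined to the bait were counted after a second cut with DpnII and amplification with bait-specific primers. The cells were C127, a mouse mammary tumour line, arrested in mitosis with nocodazole and released into G1, and in the wider series also held in G2 or in serum-starved G0. The question of the series is at what point in early G1 long-range contacts return, and how that relates to replication timing.

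Of the 109 deposited libraries, 7 read B41. They were chosen by their measured reads, as the 7 of 39 libraries titled Ch16, Ch17 or 1.5hrs with the highest percent within 100 kb of the bait, and the bait they read did not follow from their titles: 1 title names B41 and the other 6 name B30, B46, B48, B50, B76 or B87. The titled times were 1 h in 3 libraries, 1.5 h in 2 and 2 h in 2, and because the titles go against the reads, no time is assigned to any library and no time course is drawn. The libraries of each bait are numbered 1 to 7 in the order of the columns. By the choosing rule, libraries 1 to 7 had 8.02%, 8.24%, 13.3%, 13.1%, 11.4%, 15.4% and 15.2% of reads within 100 kb. The highest percent in a column outside the 7 was 0.556%. Among the same 39 columns, B30, B46 and B48, the other baits of chromosome 16, were also read by 7 libraries each, recognised in the same way, and these 21 libraries are the comparison used here. Libraries of the same number in the 4 baits lie in adjacent columns and resemble one another: in each bait library 1 had the highest percent of captured sites on chromosome 16 (61.3% to 71.5%) and library 7 the lowest (18.5% to 24.9%). No label says that they share a culture, so the tests take them as unlinked. The tests of bins and the comparisons by captured sites were repeated with each set of same-numbered libraries as a block.

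Depth differed. Libraries 1 and 2 held 278667 and 273020 reads, and the other 5 held 1412223 to 2820728. A site with at least 1 read is called captured, and libraries 1 to 7 captured 20580, 34313, 27501, 35202, 43491, 36009 and 89350 of the 823352 HindIII sites in the table. Library 7 stood apart on other chromosomes, where it captured 67571 sites against 7935 to 25936 in the other 6. Values are given for each library or as the median with the lowest and highest library, since nothing in the titles makes the 7 libraries replicates of a condition. No molecular identifiers were used, so reads are not independent molecules and no counting interval is given.

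In the nucleus, active gene-rich chromatin and inactive gene-poor chromatin lie largely in separate compartments, and a locus contacts distant chromatin of its own kind more often than the other kind. Early replicating chromatin largely matches the active compartment and late replicating chromatin the inactive compartment. GC content of a region is a rough guide to this division in mammals, which is why contact profiles are set against it below.

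The bait primer matched mm9 at chr16:40919975-40919993 on the plus strand and ends within the HindIII site at 40919990. No annotated gene overlaps it. Lsamp (ENSMUSG00000061080.5, chr16:41532971-42181792, plus strand, 648822 bp) is the only protein-coding gene within 1 Mb, and its start lies 612981 bp distal to the bait, that is on the side away from the centromere. The bases around the bait site (chr16:40919850-40920135, mm9, plus strand) are shown with the HindIII site in capitals, followed by the primer, because sequence similarity to the primer's end marks many of the recurrent sites described further below.
B41 bait: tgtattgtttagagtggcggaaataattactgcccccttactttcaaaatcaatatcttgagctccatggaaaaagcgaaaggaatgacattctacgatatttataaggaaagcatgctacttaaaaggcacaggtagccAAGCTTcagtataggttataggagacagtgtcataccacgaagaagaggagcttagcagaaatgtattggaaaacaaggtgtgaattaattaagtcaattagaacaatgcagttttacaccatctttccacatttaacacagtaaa
B41 primer: AAGGCACAGGTAGCCAAGC

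Near the bait the contacts formed a peak, with the highest share of reads in the 100 kb on each side and a lower median share in every bin further out. Over the first part of Lsamp the median share was above that of the bin just before the gene, without correction for sites per bin. All these values are descriptions, since the rule used reads within 100 kb. The 100 kb on the centromere side of the bait took 7.98% of reads (median; 4.81% to 9.39%) and the 100 kb on the distal side 4.68% (2.86% to 6.09%). Of the 69 HindIII sites within 100 kb, 63 were captured in all 7 libraries and 0 in none of them. The single site with the highest share lay at -1397 bp from the bait (negative is the centromere side), with 1.73% of reads (0.723% to 2.16%).

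Beyond 100 kb, the 5 bins of 100 kb with the highest median share were centred 0.15 Mb distal (1.36%, 0.671% to 1.65%), 0.25 Mb proximal (1.36%, 0.742% to 1.77%), 0.15 Mb proximal (1.16%, 0.535% to 1.41%), 0.25 Mb distal (0.985%, 0.514% to 1.22%) and 0.35 Mb distal (0.977%, 0.647% to 1.28%). All 5 are without a protein-coding gene. They hold 26, 50, 29, 28 and 40 HindIII sites in that order, and the shares are not divided by the number of sites. Proximal here means toward the centromere. On the distal side the share then fell to 0.446% at 0.45 Mb and 0.294% at 0.55 Mb. On the proximal side it fell from 0.642% at 0.55 Mb to 0.296% at 0.65 Mb.

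Lsamp itself came next. The bins at 0.65, 0.75 and 0.85 Mb, which hold its first part, had 0.463% (0.287% to 0.585%), 0.500% (0.344% to 0.587%) and 0.531% (0.397% to 0.688%) of reads, each above the bin at 0.55 Mb in median. They hold 29, 42 and 42 HindIII sites, against 31 at 0.55 Mb, and the shares are not divided by sites. The bin at 0.45 Mb, without a protein-coding gene, had 0.446% over 30 sites. A rise over Lsamp beyond the number of sites is thus not shown. The bin at the end of Lsamp, 1.25 Mb from the bait, had 0.199% (0.175% to 0.280%). Past it, the 2 bins of Gap43, which encodes a growth cone protein of neurons, had 0.123% (0.0985% to 0.239%) and 0.143% (0.106% to 0.300%), and the bin at 1.95 Mb, at the edge of Zbtb20, a zinc finger repressor gene, had 0.0724% (0.0332% to 0.204%). At the same distance on the proximal side, a bin with part of Igsf11, an adhesion gene of the immunoglobulin superfamily, had 0.281% (0.185% to 0.367%). The other bin of Igsf11, 1.85 Mb proximal and with 18 HindIII sites, had 0.0998% (0.0398% to 0.150%). The bin 1.85 Mb distal, with 34 sites, had 0.0925% (0.0522% to 0.213%).

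**Figure D1:**
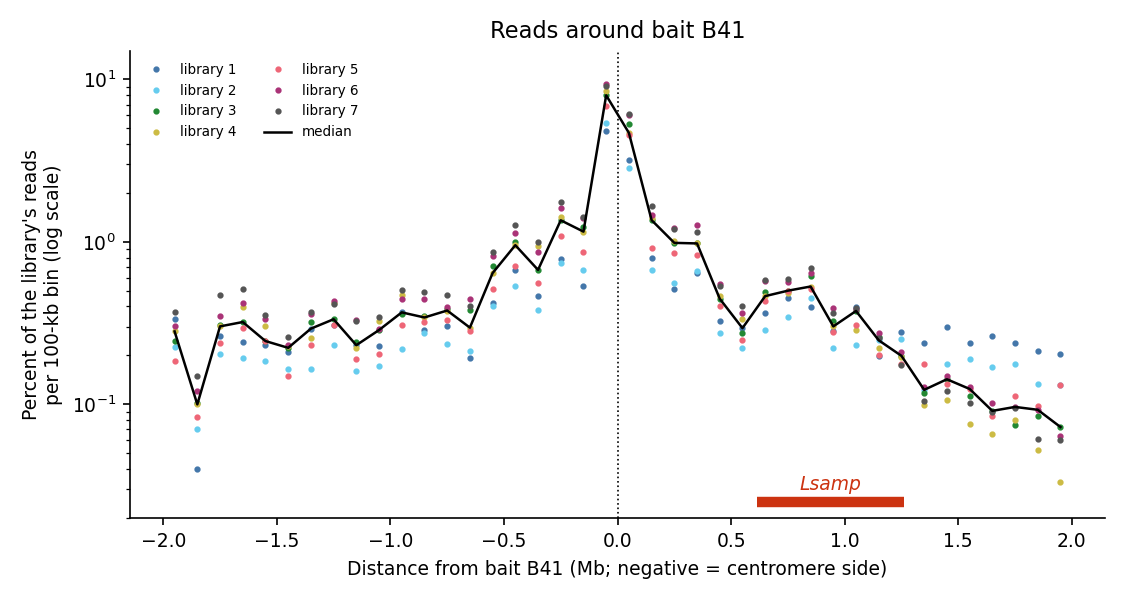
Percent of each library's reads per 100-kb bin (log scale) against distance from B41 in Mb, with points for the 7 libraries, a line for their median and a bar for Lsamp. The share steps down near 0.5 Mb on both sides, and past Lsamp is lower than at the same distance on the centromere side in the median. Over the first part of Lsamp the median is above that of the bin at 0.55 Mb, without correction for sites per bin.

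The 2 sides were uneven at 1 to 2 Mb only in some libraries. There the proximal side took 63.2% of the reads of both sides in the median, with 47.99% and 49.2% in libraries 1 and 2 and 58.0% or more in the other 5. By captured sites the proximal share was 53.9% (52.1% to 55.4%), where the proximal side holds 363 sites and the distal side 303. Within 500 kb to 1 Mb the proximal side took 49.8% of reads (46.7% to 51.0%).

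Most contacts lay far from the bait. Reads on chromosome 16 beyond 2 Mb were 45.2% of all reads in the median (38.1% to 56.8%), and reads on other chromosomes 26.3% (19.99% to 32.5%). Reads at 100 to 500 kb were 8.05% (4.50% to 9.98%) and at 500 kb to 2 Mb 8.31% (6.47% to 10.4%). Libraries 1 and 2 differed from the others in how the far reads were spread. They had 21.3% and 15.7% of reads at 2 to 10 Mb, against 7.35% to 11.6% in libraries 3 to 7, and 9.003% and 9.28% beyond 30 Mb, against 11.8% to 16.8%. Libraries 1 and 2 are also the 2 of lowest depth, and the part of depth in this difference was not tested.

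**Figure D2:**
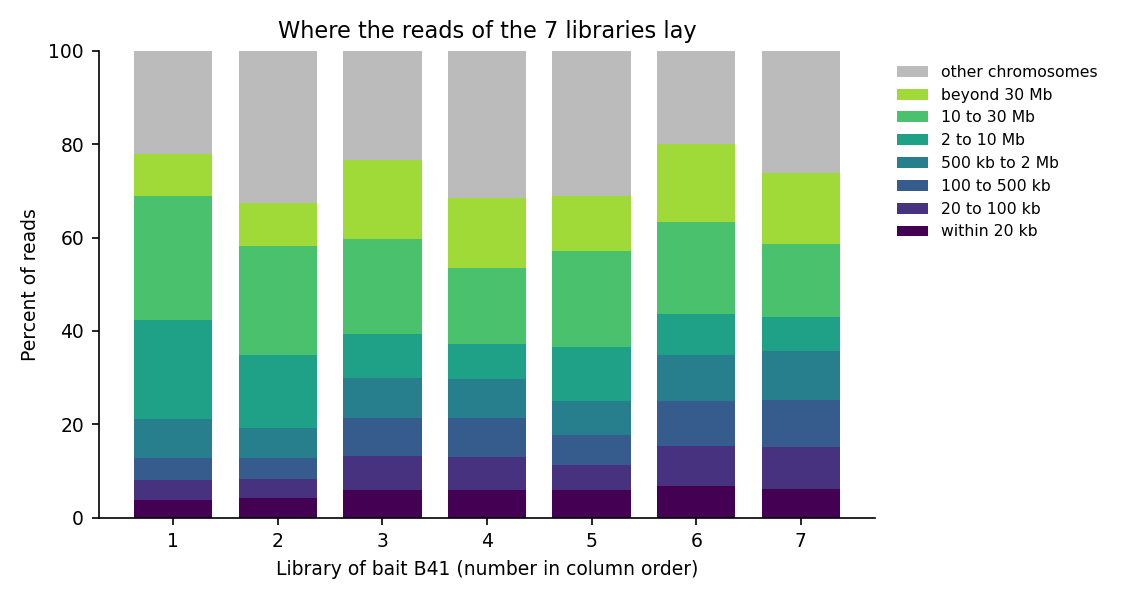
Percent of reads in 8 distance classes (stacked bars that sum to 100%) for each of the 7 libraries of B41. Libraries 1 and 2 have the highest shares at 2 to 10 Mb, 21.3% and 15.7%, and the lowest beyond 30 Mb, 9.003% and 9.28%.

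By captured sites the fall with distance was shallow. B41 captured 77.6% of the sites present at 0.1 to 2 Mb (72.8% to 88.4%), 60.3% at 2 to 10 Mb (44.3% to 70.3%), 51.5% at 10 to 30 Mb (41.5% to 68.0%) and 44.3% beyond 30 Mb (24.0% to 70.8%). Beyond 30 Mb the medians of B30, B46 and B48 were 27.8%, 40.1% and 31.0%, and their ranges overlapped that of B41. Of the 29607 sites of chromosome 16 beyond 2 Mb, 3379 (11.4%) were captured in all 7 libraries and 6048 (20.4%) in none.

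The order of a near and a distant block by share captured differed between libraries. The block from 30 to 40 Mb of chromosome 16, which ends next to the bait and is gene-rich, was captured at 60.9%, 64.5%, 39.8%, 35.4%, 65.2%, 51.1% and 64.1% in libraries 1 to 7 (sites within 2 Mb of the bait left out). The block from 70 to 80 Mb holds 21 genes, Robo1 and Robo2 among them, and was captured at 31.1%, 41.2%, 50.5%, 52.2%, 57.3%, 65.7% and 75.3%. Libraries 3, 4, 6 and 7 thus captured a larger share of the distant gene-poor block than of the adjacent gene-rich block, and libraries 1, 2 and 5 a smaller share.

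The far profile put this on a scale free of distance. It is the log2 ratio of observed to expected captured sites in 500-kb bins more than 2 Mb from all baits of the chromosome, with the expected number taken from the number of sites in the bin and a smooth curve of capture on distance, after thinning each library to 9272 captured sites. Of 158 bins, 27 (17.1%) were above expectation in all 7 libraries and 25 (15.8%) below it in all 7. These counts were 57 and 51 with the capture rate of the 70 chromosome 8 libraries in the expected value, and 41 and 32 without library 1. Profiles of pairs of libraries correlated at a median Pearson r of 0.825 over the bins, lowest for libraries 1 and 4 (0.369) and highest for libraries 3 and 6 (0.921). Bins share a library and its depth, so this is a description.

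Of the 10 highest bins above expectation in all 7 libraries, taken at least 2 Mb apart, 8 started beyond 50 Mb of chromosome 16, as did 95 of all 158 bins. The highest was chr16:95000001-95500000, 54.3 Mb away, with Kcnj6 and Kcnj15, which encode inward-rectifier potassium channels (0.52, 0.04 to 0.69). Next came 3 bins in order: chr16:73000001-73500000 at the edge of Robo1, an axon guidance receptor gene (0.47, 0.18 to 0.55), chr16:88000001-88500000 in Grik1, a kainate receptor subunit gene (0.43, 0.29 to 0.61), and chr16:97500001-98000000 with Bace2, Mx1 and Tmprss2 (0.38, 0.17 to 0.73). These ranges overlap one another, so their order is not resolved. The bin chr16:69500001-70000000 with Speer2 reached 0.31 (0.06 to 0.47). A gene desert at chr16:75000001-75500000 reached 0.31 (0.16 to 0.44), and chr16:81500001-82000000 at the edge of Ncam2, a neural cell adhesion gene, 0.27 (0.05 to 0.48). On the proximal side the 2 highest were chr16:9500001-10000000 in Grin2a, an NMDA receptor subunit gene (0.26, 0.04 to 0.37), and chr16:26500001-27000000 with Il1rap, which encodes a co-receptor for interleukin 1 (0.25, 0.15 to 0.41). The tenth was the gene desert at chr16:83500001-84000000 (0.21, 0.05 to 0.36).

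The bins lowest in all 7 libraries were of several kinds. The first assembled bin of the chromosome, chr16:3000001-3500000, stood at -3.07 (-3.52 to -2.73) and was also captured rarely in the 70 libraries of chromosome 8 baits, at 0.763% of its sites a library against 3.21% over all far bins. The next were a bin without genes at chr16:86000001-86500000 (-0.58, -0.96 to -0.41), chr16:36000001-36500000 with Kpna1 and the stefin cluster of protease inhibitors, at -4.67 Mb from the bait (-0.56, -0.80 to -0.27), chr16:92500001-93000000 with Clic6 and Runx1, a transcription factor gene of blood formation (-0.55, -1.28 to -0.03), and chr16:19000001-19500000 with immunoglobulin lambda and olfactory receptor genes (-0.47, -0.71 to -0.05). The stefin and olfactory receptor bins were at 0.0494 and 0.32, above expectation, when the capture rate of the chromosome 8 libraries entered the expected value, and the Grin2a and Il1rap bins turned to -0.16 and -0.0398 in the same setting. Without the sites that have the last 8 bases of the bait primer within 1500 bases, the Runx1 bin was above expectation in 1 of 7 libraries and the desert at chr16:83500001-84000000 in 6 of 7.

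**Figure D3:**
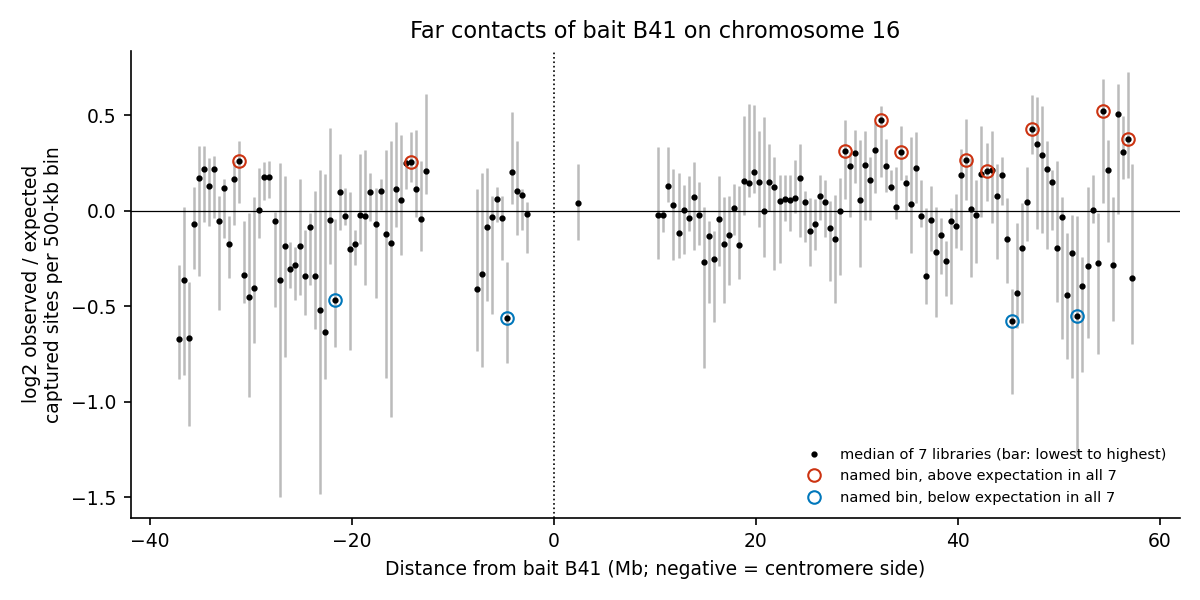
Log2 observed over expected captured sites in 500-kb bins against distance from B41 in Mb, with points for the median of 7 libraries, grey bars from the lowest to the highest library and circles for the named bins. The Robo1 bin at 32.3 Mb stands at 0.47 and the Runx1 bin at 51.8 Mb at -0.55. The bin at -3.07 is left out of the plot.

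Genes of 4 lists of chromosome 16 were then read off the profile, whatever their values. A list headed long neuronal and adhesion genes held 14 genes, though the heading is loose and does not hold for each member. Chodl, for example, spans only chr16:78931193-78951978. Of the 14, 11 lay in a far bin, and 10 of these had a median above 0. They ran from Zbtb20 (0.04) and Epha3 (0.06) through Epha6 (0.15), App (0.19) and Gbe1 (0.24) to Robo1 (0.32 in the bin of its midpoint) and Grik1 (0.43). Robo1, Robo2, Epha6, App and Grik1 were above 0 in all 7 libraries. Chodl was the exception, at -0.21 (-0.56 to 0.02). The median over the 11 genes was 0.15, and over all 158 bins it was -0.0022, with 78 bins above 0.

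Genes of the gene-rich lists mostly stood lower. On the proximal side, the bin of Hira, a histone chaperone gene, and Tbx1, a transcription factor gene of pharyngeal development, was at -0.05 (-0.28 to 0.43). In the distal block, Runx1 (-0.55), Son, a splicing cofactor gene (-0.44), and Dyrk1a, a protein kinase gene (-0.27), were below 0 in all 7 libraries. The bin of Ets2 and Erg, both ETS transcription factor genes, was the only bin of that block above 0 in median (0.21, -0.16 to 0.37). In the block next to the bait, 5 of 10 genes, Cd80, Gsk3b, Nr1i2, Popdc2 and Cox17, shared 1 far bin at -0.02 (-0.22 to 0.05). The other 5 and Lsamp, Gap43 and Igsf11 lay within 2 Mb of a bait, or, for Timmdc1, had no entry of that name in the annotation used.

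Across bins, the profile fell with GC content in 5 of 7 libraries. Spearman's coefficient of the profile with GC content over the 158 bins was 0.18, 0.14, -0.41, -0.49, -0.23, -0.38 and -0.20 in libraries 1 to 7. Libraries 1 and 2 were the ones above 0, by captured sites only. Counted in reads, the coefficient was -0.08, -0.21, -0.50, -0.56, -0.46, -0.51 and -0.54 in libraries 1 to 7. For this profile each site counted at most 100 reads and the libraries were not thinned, so depth still differed. With captured sites and the number of protein-coding genes in place of GC content, it was 0.16 in library 1, -0.02 in library 2 and -0.43 to -0.25 in the others. The 15 bins of highest median had a median GC content of 39.2% and 1 gene, and the 15 of lowest median 45.3% and 8 genes. Over all 158 bins these medians were 40.2% and 2 genes, so the contrast lay mostly in the lowest bins.

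Set against the other baits of the chromosome, this relation to GC content was lower in B41 than in B30 and B46. The baits' libraries were each thinned to 7926 captured sites for this comparison. Spearman's coefficient of the far profile with GC content was -0.22 in the median for B41 (-0.49 to 0.17), 0.54 for B30 (0.37 to 0.56), 0.57 for B46 (-0.07 to 0.62) and -0.29 for B48 (-0.43 to -0.06). The libraries of B41 and B30 did not overlap, and 1 library of B46 fell within the range of B41. The mean of B41 was lower by -0.72 than that of B30 (exact two-sided permutation test over 7 and 7 libraries, p = 0.000583, the smallest p this design allows, adjusted p = 0.00699 over 12 tests) and by -0.65 than that of B46 (exact p = 0.00175, adjusted p = 0.0105). Against B48 the difference was 0.08 (exact p = 0.500, adjusted p = 0.857), which does not show that the baits act alike. With same-numbered libraries as a block (exact two-sided sign-flip test over 7 sets), B41 was lower than B30 in 7 of 7 sets (p = 0.0156, the smallest this test allows, adjusted p = 0.0938) and than B46 in 6 of 7 (p = 0.0312, adjusted p = 0.125). Neither passed after adjustment. For B30 this was the strongest result the sign-flip test can give, so its adjusted p cannot show that blocking weakened the difference. Whether libraries of different baits came from the same cultures is not in the labels, so these p-values measure the spread between libraries.

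**Figure D4:**
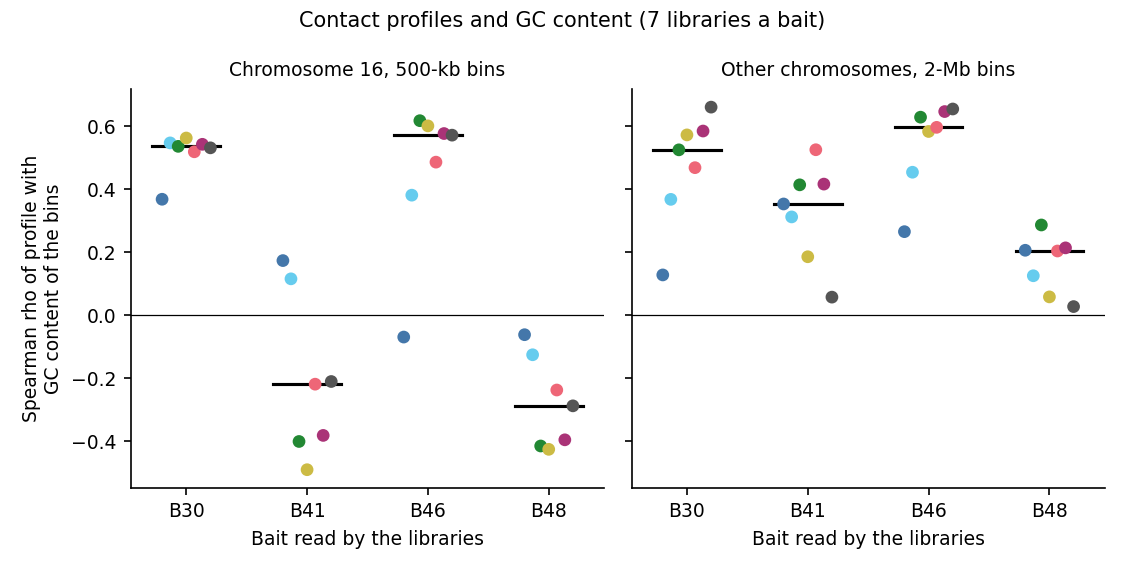
Spearman's coefficient of the far profile (left) and of the profile on other chromosomes (right) with GC content of the bins, for the 7 libraries of each bait as points coloured by library number, with a line at the median. On chromosome 16, B41 and B48 have medians of -0.22 and -0.29, and B30 and B46 of 0.54 and 0.57.

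For how much of the capture lay on the chromosome or near the bait, no difference between baits passed the test by captured sites. Of captured sites beyond 100 kb, 43.4% lay on chromosome 16 for B41 (24.3% to 61.3%), 39.3% for B30, 44.3% for B46 and 44.4% for B48, with adjusted p of 0.991 or more in exact permutation tests. Of the captured sites on chromosome 16 beyond 100 kb, 6.60% lay within 2 Mb (5.24% to 7.44%), and adjusted p was 0.857 or more by the same test. Counted in reads, the same share was 26.2% for B41 (18.5% to 34.8%) and 49.0% for B30 (21.1% to 64.0%), a difference in means of -17.9 percentage points (exact permutation test, adjusted p = 0.0420). Reads and captured sites thus gave different answers for B30, and neither gave a difference past 0.05 from B46 or B48.

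Bin by bin, reads in the same 158 far bins were compared between baits with edgeR's quasi-likelihood test (7 libraries a bait, Benjamini-Hochberg adjustment over the 3 comparisons together, threshold 0.05). The comparisons share the libraries of B41. Values are CPM, counts per 1000000 reads in the tested bins, and the fold changes are not corrected for distance, so distances from both baits are given for several of the named bins. Against B30, 59 bins (37.3%) were higher in B41 and 54 (34.2%) lower, and 72 (45.6%) did not overlap between the libraries. All 59 higher bins started beyond 50 Mb of chromosome 16, as did 95 of the 158 bins tested. The higher bins had a median GC content of 37.0% and 0 genes, and the lower bins 44.5% and 5 genes.

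The largest rise against B30 was the bin at the edge of Ncam2 (chr16:81500001-82000000), with 9497 CPM in B41 (3432.5 to 11513) and 1408 CPM in B30 (650 to 2165), a log2 fold change of 2.41 ± 0.28 (SE; edgeR adjusted p = 2.4e-08). It lies 40.8 Mb from B41 and 51.2 Mb from B30. The next rises were chr16:88500001-89000000 with Cldn17 and Cldn8, which encode tight junction claudins, and keratin-associated protein genes (2.12 ± 0.26), and the gene deserts at chr16:71500001-72000000 (2.11 ± 0.25) and chr16:84000001-84500000 (2.05 ± 0.29). None of the 4 overlapped between the libraries of the 2 baits. The largest fall was chr16:4500001-5000000 with Glis2, Dnaja3 and Hmox2, a heme oxygenase gene, which had 1870 CPM in B41 (1168 to 2350) and 11399 CPM in B30 (6404 to 20012), a log2 fold change of -2.71 ± 0.32 (edgeR adjusted p = 2.8e-08). It lies 36.2 Mb from B41 and 25.8 Mb from B30. The bins of Osbpl11 and Zfp148 (chr16:33000001-33500000, -2.35 ± 0.45) and of Ciita and Socs1 (chr16:10500001-11000000, -2.09 ± 0.27) were also lower. Ciita drives MHC class II genes and Socs1 restrains cytokine signalling. The Osbpl11 bin is only 2.65 Mb from B30.

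Against B46, 45 bins (28.5%) were higher in B41 and 49 (31%) lower, and 20 (12.7%) did not overlap. The largest rise was a gene desert at chr16:6000001-6500000, with 8275 CPM in B41 (3779 to 10705) and 2096 CPM in B46 (1201 to 2360), a log2 fold change of 1.89 ± 0.28 (edgeR adjusted p = 1.0e-06), 34.7 Mb from B41 and 39.6 Mb from B46. The largest fall was the bin of Runx1, with 1533 CPM in B41 (983 to 1683) and 6435 CPM in B46 (2693 to 9937), a log2 fold change of -2.25 ± 0.37 (edgeR adjusted p = 5.5e-06). It lies 51.8 Mb from B41 and 46.9 Mb from B46. The bin at chr16:87000001-87500000 with Usp16 and Cct8, a subunit gene of the TRiC chaperonin, was lower by -1.77 ± 0.27, and that of Nfkbiz and Rpl24 by -1.61 ± 0.33. These bins lie 46.3 and 14.8 Mb from B41 and 41.4 and 9.91 Mb from B46. The Grin2a bin was higher by 1.17 ± 0.24, and gene deserts at chr16:27500001-28000000 and chr16:83500001-84000000 by 1.27 ± 0.32 and 1.19 ± 0.25. The fourth fall, at chr16:57500001-58000000 with Filip1l and Col8a1, a short-chain collagen gene, was -1.09 ± 0.24 and lies 16.8 Mb from B41 and 11.9 Mb from B46.

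Against B48, 15 bins (9.49%) were higher in B41 and 4 (2.53%) lower, and 3 (1.9%) did not overlap. The 15 higher bins all lay proximal to the bait, so each is nearer to B41 than to B48, which lies 7.68 Mb distal to B41. They lay at chr16:10500001 to chr16:38500000 and had a median of 9 genes, against 2 over all bins. The largest log2 fold change among them was 1.06, at chr16:37500001-38000000. Only 1 called bin did not overlap between the libraries, that of Erg and Ets2 (chr16:95500001-96000000, 54.8 Mb from B41 and 47.1 Mb from B48), with 3772 CPM in B41 (1469 to 4329) and 5356 CPM in B48 (4560 to 5543), a log2 fold change of -0.69 ± 0.29 (edgeR adjusted p = 0.0453). This call was lost with captured sites in place of reads (adjusted p = 0.278), with read totals in place of TMM (0.0573), without sites near a primer end (0.0656) and without library 1, 2, 4, 5 or 7 (adjusted p = 0.0507 to 0.104). The count of 19 bins called against B48 became 30 with same-numbered libraries as a block, 16 of them shared, 8 without library 1 and 12 without library 2, and 6 of the 19 were also called with captured sites.

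Gene by gene, far genes of the long neuronal and adhesion list were mostly higher in B41 than in B30. Most genes of the distal gene-rich block were lower than in B30 and B46. Of the 11 far genes of the long neuronal and adhesion list, 8 were in bins higher in B41 than in B30, among them Robo1 (2.04 ± 0.24), Grik1 (1.92 ± 0.25), Ncam2 (1.89 ± 0.25), Epha6 (1.65 ± 0.29) and Chodl (1.18 ± 0.22), against 37.3% of all bins. All of the 11 but Zbtb20 lie beyond 50 Mb of chromosome 16, where 59 of 95 bins were higher than in B30. That part is nearer to B41 than to B30, and the fold changes are not corrected for distance. The count is thus not particular to these genes. Against B46, 4 of the 11 genes were higher (Robo1, Ncam2, Epha6 and Grik1) and 2 lower (Zbtb20 and Cadm2), where 28.5% of all bins were higher and 31% lower, and against B48, 0 were called. The bin of Hira and Tbx1 was lower than in B30 (-1.75 ± 0.24) and than in B46 (-1.12 ± 0.23), and it was not called against B48 (0.34 ± 0.23, edgeR adjusted p = 0.236). The 8 genes of the distal block lie in 6 bins. Of them, 6 were lower than in B30, 8 lower than in B46 and 2, Ets2 and Erg, lower than in B48, against 34.2%, 31% and 2.53% of all bins. The 5 far genes beside the bait, in 1 bin, were called only against B48 (higher, 0.89 ± 0.36, adjusted p = 0.0390). In that bin B41 had 3694 to 23884 CPM and a median of 4642 CPM.

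Windows of 1 Mb around the other baits, with the 100 kb on each side of them left out, gave each pair from both ends. From B41, the window of B48, 7.68 Mb away, stood at 0.17 (-0.03 to 0.52, above 0 in 6 of 7 libraries), that of B46 at 0.07 (-0.07 to 0.31) and that of B30, 10.3 Mb away, at -0.05 (-0.61 to 0.10). Read from the other end, the window of B41 stood at 0.38 for B48 (0.17 to 0.76, above 0 in 7 of 7), at 0.02 for B46 (-0.37 to 0.18) and at -0.35 for B30 (-0.85 to 0.16). The windows of B41 and B48 thus had medians of 0.17 and 0.38 from the 2 ends, and no test was made of these values.

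The 4 sites printed next had the highest median reads among the 3379 far sites captured in all 7 libraries. Each is shown on the plus strand of mm9 with 20 bases on both sides of its HindIII site, which is in capitals, at chr16:31894850-31894895, chr16:38897232-38897277, chr16:57119451-57119496 and chr16:35408694-35408739.
Mfi2 site: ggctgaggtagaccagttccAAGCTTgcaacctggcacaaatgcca
Igsf11 site: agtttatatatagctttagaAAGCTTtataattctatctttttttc
Tomm70a site: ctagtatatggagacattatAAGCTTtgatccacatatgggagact
Pdia5 site: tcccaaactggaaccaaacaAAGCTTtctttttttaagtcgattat

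The site in Mfi2, which encodes the iron-binding melanotransferrin, lies at -9.03 Mb from the bait and had 1263 RPM, reads per 1000000 reads of the library (429 to 1952). It was also captured in 7, 5 and 3 libraries of B30, B46 and B48. The site 4332 bp from Igsf11 had 249 RPM (70.5 to 574). The site 2356 bp from Tomm70a, a gene of the mitochondrial import receptor, had 246 (78.1 to 399) and was captured in 0, 1 and 0 libraries of B30, B46 and B48. The site in Pdia5, a protein disulfide isomerase gene, had 194 (87.6 to 300). The Tomm70a and Pdia5 sites have the last 10 and 14 bases of the bait primer within 1500 bases, and the Mfi2 site the last 8.

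On other chromosomes, 834 of 791535 sites were captured in all 7 libraries of B41, against 15 for B30, 209 for B46 and 75 for B48. Of the 834, 352 were captured in 0 and 358 in 1 or 2 of the 21 libraries of the other baits. They took 23.8% of the reads on other chromosomes (10.4% to 40.3%). In contrast, 52.1% to 76.2% of a library's captured sites on other chromosomes were captured in no other library of B41.

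Many of these recurrent sites have the end of the bait primer nearby. The last 8 bases of the primer, AGCCAAGC, occurred on either strand within 1500 bases of 52.8% of the 834 sites and of 11.1% of all sites on other chromosomes. The last 10 bases, GTAGCCAAGC, which contain them, occurred near 20.02% and 0.405%, and the last 12, AGGTAGCCAAGC, near 8.27% and 0.0364%. The share with the last 8 bases was 10.3% of sites captured in 0 libraries, 13.6% in 1, 18.3% in 2, 30.7% in 3 and 50.1% in 6. On chromosome 16 beyond 2 Mb it was 10.6% of sites captured in all 7 and 8.13% to 15.0% of the others. A match of letters is a description and shows no cause of the capture, which was not tested.

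**Figure D5:**
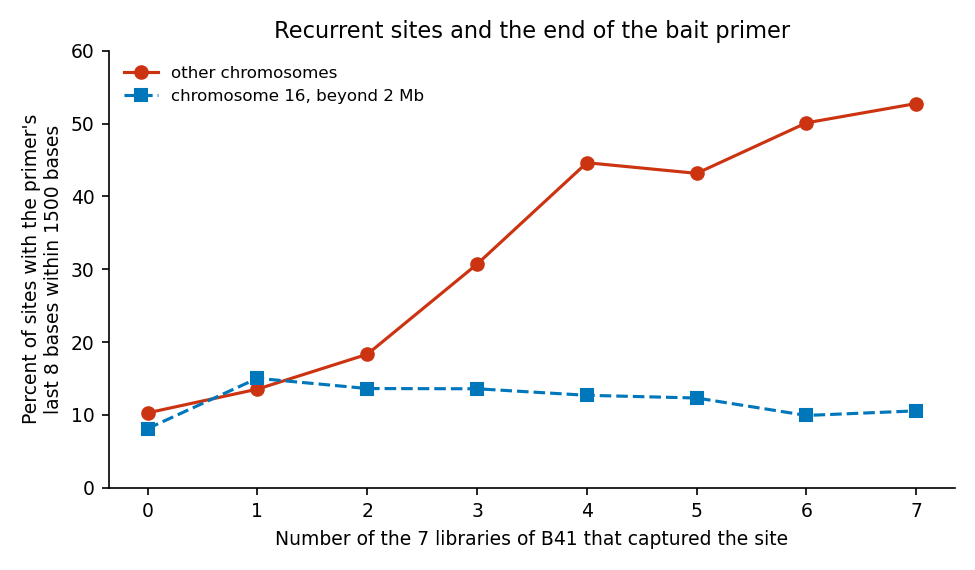
Percent of HindIII sites with the last 8 bases of the primer within 1500 bases, against the number of B41 libraries that captured the site, for other chromosomes and for chromosome 16 beyond 2 Mb. The percent rises from 10.3% to 52.8% on other chromosomes and stays between 8.13% and 15.0% on chromosome 16.

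Of the recurrent sites, 4 are shown for their long matches. The first 3 are the 20 bases that end with the HindIII site (chr8:49175726-49175745, chr2:138170381-138170400 and chr15:6227264-6227283, plus strand), with the bases that match the primer's end in capitals. The last is a stretch at chr9:118373053-118373095 that holds the whole primer, in capitals, 334 bp from the recurrent site at 118372731.
chromosome 8 site: gtaCACAGGTAGCCAAGCtt
chromosome 2 site: aaggACAGGTAGCCAAGCtt
chromosome 15 site: cagaACAGGTAGCCAAGCtt
chromosome 9 stretch: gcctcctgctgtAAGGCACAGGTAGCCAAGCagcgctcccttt

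The chromosome 8 site, 8706 bp from Dctd, matches the primer's last 15 bases and had 299 RPM (109 to 984). The chromosome 2 site, in Btbd3, had 111 (54.1 to 462), the chromosome 15 site, 22510 bp from Dab2, 17.9 (5.48 to 57.3), and the chromosome 9 site, 14599 bp from Eomes, 6.74 (0.685 to 15.9). The chromosome 9 site was captured in 0 of the 21 libraries of the other baits. The recurrent sites with the most reads had shorter matches within 1500 bases. The site chr8:85560381 in Rnf150 had 3714 RPM (2526 to 6754) with 8 bases nearby, chr4:34436686 3096 (2223 to 6628) with fewer than 8, chr8:83522141 in Usp38 2582 (1841 to 5394) with 10, and chr17:78596498 2575 (1264 to 4531) with fewer than 8.

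Most bins called between baits on other chromosomes were called only with recurrent sites included, here in the wider sense of 2924 sites captured in at least 5 of 7 libraries of any chromosome 16 bait. In 2-Mb bins, 95 of 1216 (7.81%) were higher in B41 than in the mean of the other 3 baits and 60 (4.93%) lower (edgeR's quasi-likelihood test, adjusted over bins), and 16 (1.32%) did not overlap. Scaling by read totals in place of TMM gave 74 higher and 115 lower and moved the median of all bins by -0.13. Without these sites, 11 bins were called, 7 higher and 4 lower, all among the first 155. The 5 largest rises were chr8:82000001-84000000 with Usp38 and Smarca5 (4.18 ± 0.24), chr4:34000001-36000000 with Akirin2 (4.17 ± 0.25), chr13:62000001-64000000 with Fbp1 and Fbp2, the fructose bisphosphatases (3.82 ± 0.26), chr4:54000001-56000000 with Klf4 (3.39 ± 0.25) and chr12:86000001-88000000 with Npc2 (3.24 ± 0.27). Recurrent sites held 92.5% to 96.1% of the B41 reads of these bins in the median, and without them the 5 log2 fold changes were -0.45 to -0.04. The recurrent sites were chosen from these same libraries, and 1858 of them reached 5 of 7 libraries in B41. Leaving them out thus lowers B41 by the way they were chosen, and the loss of these rises is a description. No bin lower in B41 was free of overlap.

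Of the 11 bins called without the recurrent sites, the largest rise was chr15:18000001-20000000 with Cdh10, a cadherin gene, with 1592 CPM in B41 (548 to 7537) and 654 CPM in the other baits (243 to 1778), a log2 fold change of 2.03 ± 0.30 (edgeR adjusted p = 1.6e-05). The other 6 higher bins ran from 1.02 to 1.29 and included Lingo2, Fat3 and Bcl11a, and the 4 lower bins, from -1.19 to -0.92, included Gad1, Adam10, Bmp4 and Ppard. These 11 were named after their values were seen. The higher bins had a GC content of 36.6% to 40.4% and the lower bins 43.2% to 49.3%.

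The profile over other chromosomes, by captured sites thinned to 7737 a library, gave overlapping values for B41 and the other chromosome 16 baits at the scale of whole chromosomes. Of 1231 bins, 9.59% were above expectation in all 7 libraries of B41 and 254 (20.6%) below, and without the recurrent sites 90 (7.31%) and 235 (19.1%). With the capture rate of the chromosome 8 libraries as the expected value, 185 were above and 58 below. Chromosome 19 was captured above the rate of all other chromosomes by 0.71 on the log2 scale (0.58 to 0.77), chromosome 17 by 0.52 (0.48 to 0.70) and chromosome 15 by 0.50 (0.42 to 0.56). Chromosome X was at -0.95 (-1.15 to -0.87), chromosome 14 at -0.61 (-0.74 to -0.48) and chromosome 12 at -0.55 (-0.63 to -0.43). In the 21 libraries of the other baits the medians were 0.76, 0.55, 0.54, -1.03, -0.66 and -0.54, and each range overlapped that of B41. Chromosome numbers of C127 cells are not in the labels, and their part in these values was not tested.

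The highest bin on other chromosomes was chr11:2000001-4000000, with Sfi1 and Limk2, at 1.62 (0.37 to 2.28), which dropped to 0.17 (-0.35 to 0.74) without the recurrent sites. The others kept most of their excess without those sites, among them chr15:78000001-80000000 with Pvalb and Csf2rb, a cytokine receptor gene (1.26 with all sites, 1.05 without), chr17:86000001-88000000 with Six2, Six3 and Epas1, a hypoxia-inducible factor gene (1.07 and 0.97), chr15:80000001-82000000 with Atf4 (1.04 and 0.86), chr19:58000001-60000000 with Gfra1 (1.03 and 0.84), chr17:24000001-26000000 with serine protease genes (1.02 and 0.72), chr17:84000001-86000000 with Mta3 and Thada (1.00 and 0.96), chr1:194000001-196000000 with Kcnh1 (0.97 and 0.66), chr19:40000001-42000000 with the Cyp2c genes of drug metabolism (0.94 and 0.83, then above in 6 of 7 libraries) and chr19:46000001-48000000 with Ldb1 (0.91 and 0.78). The 5 lowest, at -3.95 to -3.86, were bins of chromosomes 5, 12 and 14 whose annotated genes are mostly predicted ones, and the 70 chromosome 8 libraries captured 0.00209% to 0.132% of their sites a library, against 4.15% over all bins.

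By captured sites, the relation of this profile to GC content was positive in all 7 libraries of B41, where that of the far profile was above 0 in libraries 1 and 2. Spearman's coefficient was 0.38, 0.33, 0.44, 0.21, 0.53, 0.43 and 0.05 in libraries 1 to 7, and 0.02 to 0.49 without the recurrent sites. Counted in reads, capped at 100 a site and without thinning, it was -0.0037 in library 4, -0.0078 in library 7 and 0.16 to 0.31 in the others. With all 28 libraries thinned to 4551 captured sites, the median was 0.35 for B41 (0.06 to 0.53), 0.52 for B30 (0.13 to 0.66), 0.60 for B46 (0.26 to 0.65) and 0.20 for B48 (0.03 to 0.29). B41 differed in mean from B30 by -0.15, from B46 by -0.22 and from B48 by 0.16, with exact permutation p of 0.125, 0.0181 and 0.0396 and adjusted p of 0.299, 0.0723 and 0.119. None passed after adjustment, but some alternatives moved these comparisons past 0.05: reads in place of captured sites against B30 and against B46, and, against B46, leaving out the recurrent sites (-0.29, adjusted p = 0.0373) or library 5 (-0.26, adjusted p = 0.0350). Without library 7 the difference from B48 was 0.21 (adjusted p = 0.0233).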

How the data were processed

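The deposited table held raw read counts per HindIII site, and the authors used BWA 0.5.9 and the mm9 build per the submitters' processing notes; read filters are not given in the sources used here. All 823352 positions equalled HindIII sites of mm9. Each bait's position is the match of its primer, given as the bar code in the labels, in mm9. Genes came from GENCODE M1 of the same build. Members, gene lists and tests were chosen with earlier results of these data known. Columns were recognised by reads within 100 kb of a bait. Profiles used captured sites (1 read or more), a lowess of span 0.5 on log10 distance, a pseudocount of 0.5, bins of at least 20 sites and the mean of 10 thinning draws. Where profiles were counted in reads, each site counted at most 100 reads and no thinning was done. Reads of 28 libraries were tested in 1 fit with edgeR 4.0.16 (TMM, filterByExpr, robust quasi-likelihood; R 4.3.3), and SE was taken from the F statistic. DESeq2 1.42.0 was an alternative. Named bins were the 10 highest and 5 lowest of each profile that lay on 1 side of expectation in all 7 libraries, the 4 (far) or 5 (other chromosomes) largest called changes of each direction without overlap, at least 2 Mb apart on chromosome 16, and the 5 highest bins near the bait. On simulated counts of the 158 far bins with 60 changed, 5.17% to 11.5% of 58 to 61 calls were false, 0 had the wrong sign, and 79.3% to 86.2% of 2-fold changes were called; on 1216 bins of other chromosomes with 200 changed, 2.38% of 168 calls were false and 67.9% of 2-fold changes were called. The simulation drew unlinked libraries with 1 common dispersion and fewer changed far bins than the 113 called against B30 and 94 against B46. Its false-call rates thus need not hold for these comparisons. Profiles were computed in Python 3.11.15 (scipy 1.17.1, pandas 2.3.3). Alternatives that leave out primer-end or recurrent sites, or take same-numbered libraries as a block, were added after seeing the data. Some listed genes and a named bin are not reported here.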

Additional observations from a re-analysis of the deposited data

Results flagged for a closer look

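In 10 of 153 values checked over the 7 libraries, 1 library lay far from the other 6 for its group's range. Chance gives about 1 in 20 for independent values. The values here are not independent, since the captured sites of library 7 enter more than once, as counts and as percents. Library 7 captured 67571 sites on other chromosomes (8.53% of those present), where the next library had 25936, and 89350 sites in all (10.9%), where the next had 43491. Library 1 stood at 0.0410 in the Grin2a bin, below the other 6, and at 0.70 on chromosome 17, above them. Library 6 stood at 1.53 in the bin of Gfra1 on chromosome 19. Library 5 stood at -3.40 in the bin chr14:4000001-6000000, where the other 6 shared the value -3.87. Library 2 had 53.2% of its captured sites at 100 to 500 kb on the proximal side, below the other 6. The causes were not tested.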

How the results depend on the processing

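No paired analysis was possible because the titles of these columns do not match the bait read, so that column order is the only link between libraries. With same-numbered libraries as a block all the same, 119, 116 and 30 bins were called against B30, B46 and B48 and on other chromosomes 95 were higher and 51 lower. The far GC differences of -0.72 (B30) and -0.65 (B46) did not pass in the sign-flip test over 7 sets. There B30 was at the smallest p the test allows, so the test cannot show that blocking weakened that difference. The far profile had 32.9% of bins on the same side in all 7 libraries, 68.4% (57 above, 51 below) with the capture rate of the 70 chromosome 8 libraries in the expected value and 32.9% to 46.2% with a library left out. The profile on other chromosomes had 30.2%, and 19.7% (185 above, 58 below) with that capture rate and 32.6% to 34.7% with a library left out. In 1-Mb bins, of which there are fewer, 56, 49 and 9 bins were called against B30, B46 and B48. With a B41 library left out, 108 to 113, 83 to 99 and 8 to 25 were called. The 155 bins called on other chromosomes became 289 with captured sites and 11 without recurrent sites. Read totals moved the median far fold change against B30 by 0.22 and DESeq2 by -0.16, and all 113 bins called kept their direction in both. Stronger differences were -17.9 percentage points (reads, share within 2 Mb, B30), -0.275 and -0.316 (reads, GC relation on other chromosomes, B30 and B46) and -0.29 (without recurrent sites, B46). With a library left out these GC differences ran from -0.26 to -0.18 against B46 and 0.13 to 0.21 against B48. Signs turned with the capture rate of chromosome 8 libraries for the Grin2a (-0.16), Il1rap (-0.0398), stefin (0.0494) and olfactory receptor (0.32) bins. They turned with captured sites for the chromosome 13 (-0.22), chromosome 4 Klf4 (-0.0846) and chromosome 12 (-0.0723) bins. Without recurrent sites the Usp38, Akirin2, Fbp1, Klf4 and Npc2 bins stood at -0.0414, -0.0357, -0.45, -0.28 and -0.37. Of 611 recomputed values of 52 named bins, 539 stayed within the spread or on their side of the threshold, 51 moved, 9 were no longer called and 12 turned sign; 43 of the 52 never turned. The causes were not tested beyond what each setting leaves out. These bins were named because all 7 libraries lay on 1 side of expectation, or because the baits did not overlap. Leaving out 1 library could thus hardly turn their sign, and those values say little about robustness. Libraries 1 and 2 had the fewest reads, 278667 and 273020.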
